A study of Homo sapiens with 12 samples.

Results

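The neural microRNAs (miRNAs) hsa-miR-9-5p, hsa-miR-9-3p, hsa-miR-137-3p and hsa-miR-2682-5p were followed across extracellular vesicles of 6 cancer cell lines. They are 4 of the 1636 mature miRNAs in the count table, were picked by name, and were chosen with their levels across these lines already known, so their levels are given as a description with no test. The lines were Hutu80, MDST8, SW1116, Car-1, RCM-1 and HT55, and 12 libraries were sequenced, 2 for each. The labels call all 6 lines colorectal cancer (CRC), although Hutu80 is catalogued as a duodenal adenocarcinoma line. The labels name no treatment or genotype, and all lines grew in DMEM/F12 medium containing fetal bovine serum and antibiotics. Vesicles were purified by ultrafiltration and size-exclusion chromatography. The series sets 3 lines of consensus molecular subtype 2 (CMS2) against 3 of subtype 4 (CMS4). No label used here ties a line to a subtype, so lines were compared and subtypes were not. Each line is a single culture-derived model, and the labels do not say whether its 2 libraries came from separate cultures, so the spread between them may be technical.

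miRNAs are short RNAs that guide Argonaute proteins to messenger RNAs, mainly through pairing of the seed near their 5′ end, and lower the output of those messages. miR-9 is among the most abundant miRNAs of the brain. Its 5p arm targets the neuronal gene silencer REST and the nuclear receptor TLX, its 3p arm targets the REST cofactor CoREST, and both arms push neural progenitors toward differentiation. miR-137 restrains the histone modifiers EZH2 and LSD1 and shapes neural stem cell division and dendrite growth. In colorectal tumours the promoters of miR-9 and miR-137 genes are known to be methylated. miR-2682 is encoded beside miR-137 in the same host RNA, and less is known of its targets.

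The mature sequences of the 4 members and of the 2 other miRNAs of the table that share a member's seed are shown 5′ to 3′, with the seed (bases 2 to 8) in capitals, because they show which members could share targets. All 4 members matched the RefSeq table (GRCh38.p14).
miR-9-5p: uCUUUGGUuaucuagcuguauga
miR-9-3p: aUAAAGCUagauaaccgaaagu
miR-137-3p: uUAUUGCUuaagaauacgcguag
miR-2682-5p: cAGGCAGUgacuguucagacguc
miR-34b-5p: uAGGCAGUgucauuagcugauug
miR-449c-5p: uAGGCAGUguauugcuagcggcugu
The 4 members carry 4 different seeds. No other miRNA of the count table had the seed of miR-9-5p, miR-9-3p or miR-137-3p, whereas miR-2682-5p had the seed of miR-34b-5p and miR-449c-5p, members of the miR-34 and miR-449 families.

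The hairpins show which loci the counts can and cannot tell apart. miR-9 has 3 hairpins, shown with the mature arms in capitals.
MIR9-1: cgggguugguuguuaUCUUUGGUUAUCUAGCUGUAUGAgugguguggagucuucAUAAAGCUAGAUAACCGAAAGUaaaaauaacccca
MIR9-2: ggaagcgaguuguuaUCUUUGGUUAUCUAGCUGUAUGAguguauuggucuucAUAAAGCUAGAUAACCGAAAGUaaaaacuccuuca
MIR9-3: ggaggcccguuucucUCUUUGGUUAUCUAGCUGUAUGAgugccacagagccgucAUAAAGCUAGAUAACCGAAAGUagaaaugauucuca
MIR9-1 lies on chromosome 1 from 156420341 to 156420429 on the minus strand, in an intron of C1orf61 (GENCODE 29), which RefSeq names MIR9-1HG. MIR9-2 lies on chromosome 5 from 88666853 to 88666939 on the minus strand, overlapping an exon of LINC00461, and MIR9-3 on chromosome 15 from 89368017 to 89368106 on the plus strand, in an intron of MIR9-3HG. The capital arms are identical in all 3, and the loops between them are 16, 14 and 16 bases long. Counts of either mature arm therefore sum over the 3 loci and cannot be assigned to one. miR-137 and miR-2682 have 1 hairpin each, shown in the same way because they are neighbours.
MIR137: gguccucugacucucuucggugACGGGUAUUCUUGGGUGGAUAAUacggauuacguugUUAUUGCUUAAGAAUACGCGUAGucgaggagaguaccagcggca
MIR2682: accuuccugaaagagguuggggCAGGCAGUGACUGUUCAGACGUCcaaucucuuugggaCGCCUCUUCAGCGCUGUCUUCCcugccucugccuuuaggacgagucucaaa
MIR137 lies on chromosome 1 from 98046070 to 98046171 and MIR2682 from 98045242 to 98045351, both on the minus strand. They are 718 bases apart, MIR2682 being downstream, and both overlap exons of the long non-coding RNA MIR137HG.

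Library totals ran from 71831 counts in a Hutu80 library to 622800 in a SW1116 library, so that 1 count was worth 13.9 CPM (the count scaled to a library of fixed size) in the former and 1.61 CPM in the latter. Levels are CPM scaled by trimmed-mean (TMM) factors, which correct for miRNAs that dominate a library, and a line is given by the mean ± SD of its 2 libraries. Unscaled CPM divide by the library total only. An SD of 2 libraries can fall below their counting error, so a small SD is no measure of precision. Intervals are exact 95% Poisson or Clopper-Pearson intervals and cover counting error only. All 4 members were among the 318 miRNAs that passed the filter on low counts. miR-137-3p and miR-2682-5p passed on the lines in which they were high. In vesicle RNA, fewer vesicles carrying a miRNA and fewer copies per vesicle cannot be told apart.

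hsa-miR-9-5p, the REST-targeting arm, was carried by vesicles of every line and was at its highest in SW1116, at 1567 ± 8.88 CPM. Its counts were 699 and 502 in the SW1116 libraries, 309 and 233 in MDST8, 72 and 105 in Hutu80, 146 and 86 in Car-1, 27 and 69 in HT55, and 53 and 66 in RCM-1. Scaled, these were 1567 ± 8.88 CPM in SW1116, 856 ± 176 in MDST8, 835 ± 66.6 in Hutu80, 512 ± 115 in Car-1, 278 ± 61.1 in HT55 and 271 ± 107 in RCM-1. The lines thus fell into 4 steps. SW1116 stood above all others, the libraries of MDST8 and Hutu80 overlapped, Car-1 came next, and HT55 and RCM-1 overlapped at the bottom. The top of this order depended on the scaling. In unscaled CPM the SW1116 libraries, at 1122 and 1007, overlapped the Hutu80 libraries at 1002 and 1044, and those of MDST8 (909 and 759) overlapped those of Car-1 (845 and 624). The separation of HT55 and RCM-1 from the other lines was present on both scales. Pooled over libraries, unscaled miR-9-5p was 4.9-fold higher in SW1116 than in RCM-1 (counting interval 4.06 to 5.97) and 1.04-fold higher than in Hutu80 (0.89 to 1.23). By abundance it ranked 61st and 57th among the miRNAs of the SW1116 libraries and 109th and 132nd among those of RCM-1.

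hsa-miR-9-3p, the other arm of the same hairpins, was less abundant and more unevenly spread. Its counts were 211 and 112 in SW1116, 14 and 16 in Hutu80, 14 and 9 in Car-1, 16 and 11 in MDST8, 9 and 9 in RCM-1, and 2 and 8 in HT55. Its level was 411 ± 84.9 CPM in SW1116 and 144 ± 13.3 in Hutu80, and neither line overlapped any other. The remaining lines lay between 27.3 ± 14 CPM in HT55 and 50.9 ± 8.41 in Car-1, each overlapping its neighbour in the order. SW1116 and Hutu80 held the first and second places in unscaled CPM too. There the libraries of SW1116 were at 339 and 225 CPM and those of Hutu80 at 195 and 159. MDST8, whose 5p arm overlapped that of Hutu80, was at 42.7 ± 11.5 CPM for the 3p arm and thus among the low lines.

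**Figure D1:**
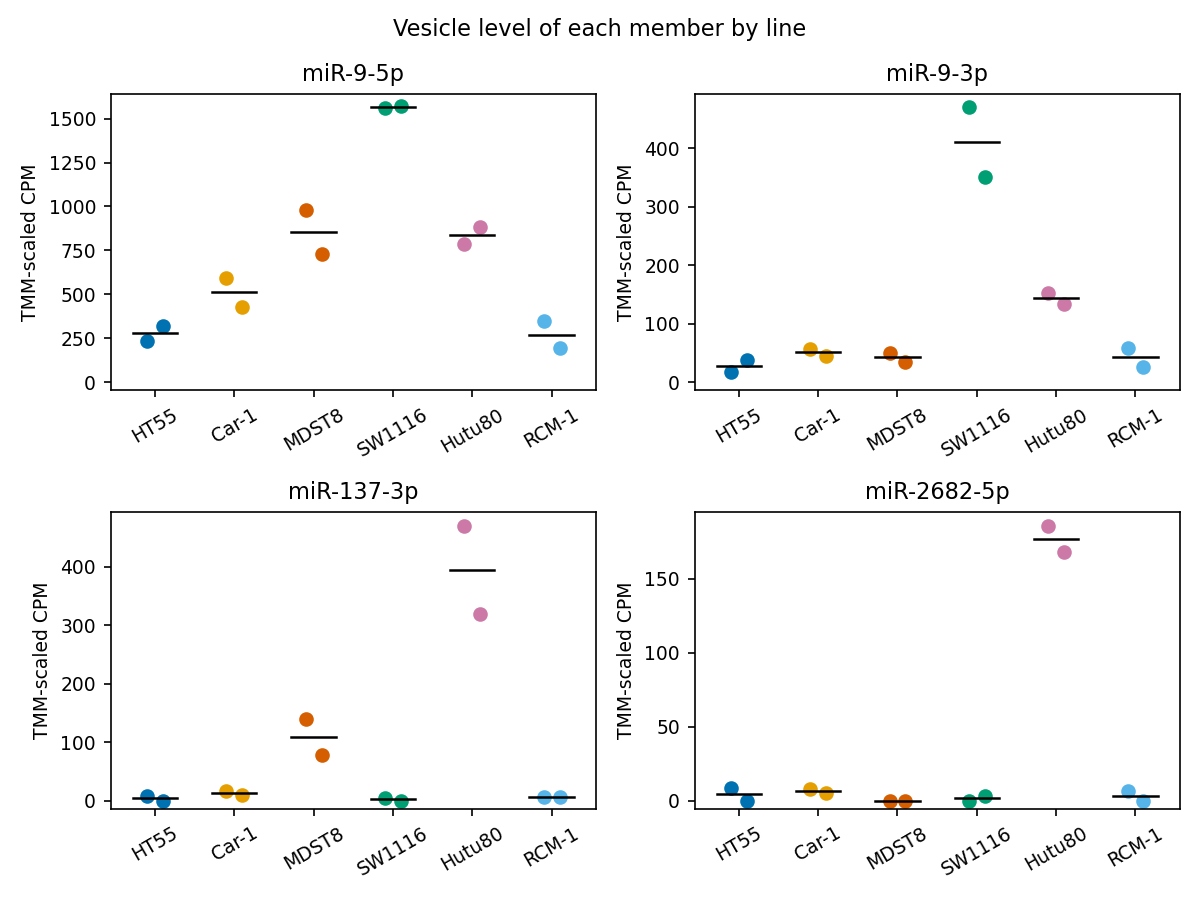
TMM-scaled CPM (linear axes) of each member in the 6 lines, with 1 point per library and a bar at the line mean. miR-9-5p is present in every line, miR-9-3p peaks in SW1116, miR-137-3p is high in Hutu80 and MDST8, and miR-2682-5p is high in Hutu80 with no count in MDST8.

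The balance of the miR-9 arms was then compared between lines. This ratio lies within a library, so no scaling enters it. It comes from the counts by which the members were known, so it is a description with no test. The 3p arm made up 23.2% and 18.2% of all miR-9 counts in the SW1116 libraries, 16.3% and 13.2% in Hutu80, and 14.5% and 12% in RCM-1. It made up 8.75% and 9.47% in Car-1, 6.90% and 10.4% in HT55, and 4.92% and 4.51% in MDST8. Over both libraries the share was 21.2% in SW1116 (323 of 1524 counts, interval 19.2% to 23.3%) and 4.75% in MDST8 (27 of 569, interval 3.15% to 6.83%). The SW1116 libraries lay above those of every other line and the MDST8 libraries below them, while the intermediate lines overlapped within 2 sets, Hutu80 with RCM-1 and Car-1 with HT55.

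On the log2 scale the 5p arm exceeded the 3p arm by 4.29 ± 0.08 in MDST8, 3.26 ± 0.11 in Car-1, 3.25 ± 0.30 in HT55, 2.65 ± 0.22 in RCM-1, 2.50 ± 0.25 in Hutu80 and 1.94 ± 0.31 in SW1116 (SD, n = 2). Differences between lines made up 95.4% of the variance of this ratio. Part of such a share arises even where lines do not differ, and no baseline is given for it. MDST8 and Hutu80 differed more in the 3p arm than in the 5p arm. Unscaled miR-9-3p was 4.17-fold higher in Hutu80 than in MDST8 (counting interval 2.4 to 7.29), whereas miR-9-5p was 1.23-fold higher (1.03 to 1.45). Line means of arm balance also spanned a range for other hairpins. Such a span includes counting error and the spread between libraries, so the place of miR-9 among them is a description only. Among the 31 pairs of arms with a count of each arm and at least 20 counts together in every library, the line means of miR-9 spanned 2.34 log2 units, the 10th widest, against a median span of 1.77.

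**Figure D2:**
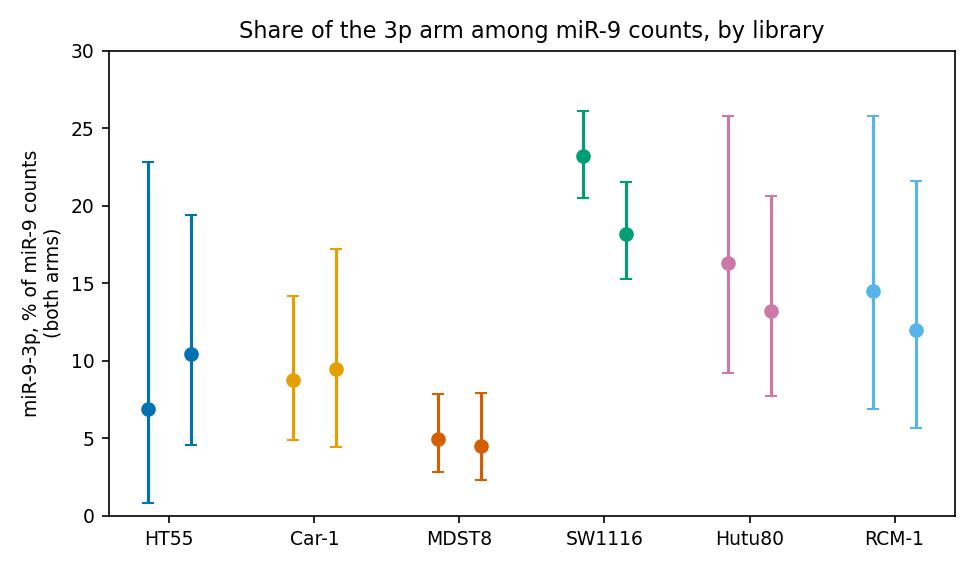
Share of miR-9-3p among all miR-9 counts (percent) in each library, with exact 95% binomial intervals. The SW1116 libraries, at 23.2% and 18.2%, are the highest and the MDST8 libraries, at 4.92% and 4.51%, the lowest.

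hsa-miR-137-3p was concentrated in vesicles of Hutu80 and MDST8. It had 43 and 38 counts in the Hutu80 libraries and 44 and 25 in the MDST8 libraries. The other lines gave 4 and 2 counts (Car-1), 1 and 2 (RCM-1), 1 and 0 (HT55), and 2 and 0 (SW1116). In CPM both Hutu80 libraries were above both MDST8 libraries, and both lines were above all 8 other libraries. The scaled level was 395 ± 107 CPM in Hutu80 (261 without Hutu80 replicate 1), 109 ± 43.3 in MDST8 and 13.1 ± 4.42 in Car-1. Unscaled and pooled, miR-137-3p was 4.4-fold higher in Hutu80 than in MDST8 (counting interval 3.16 to 6.16) and 24.3-fold higher than in Car-1 (10.7 to 68.2). Against SW1116, the line with the most miR-9-3p, the ratio was 263 (70.6 to 2212), resting on 2 counts there. The order of RCM-1, HT55 and SW1116 among themselves was not detectable at 3, 1 and 2 counts. The opposite arm, miR-137-5p, had 5 counts in Hutu80 replicate 2, 1 in RCM-1 replicate 2 and none in the remaining 10 libraries.

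hsa-miR-2682-5p was concentrated in vesicles of Hutu80. It had 17 and 20 counts in Hutu80, 2 and 1 in Car-1, and at most 1 in any library of HT55, RCM-1 and SW1116. Neither MDST8 library had a count. Its scaled level was 177 ± 12.7 CPM in Hutu80, against 6.56 ± 2.21 in Car-1. Of its 43 counts, 37 were in Hutu80, although the Hutu80 libraries were the shallowest and 1 count there weighed the most. Unscaled and pooled, it was 22.2-fold higher in Hutu80 than in Car-1 (counting interval 7.04 to 113). Against MDST8 it was at least 46.3-fold higher, taking 3 counts over both MDST8 libraries as the limit that a count of 0 allows. At 0 to 2 counts per library, the order of the lines below Hutu80 was not detectable.

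Although the hairpins are neighbours in 1 host RNA, the shares of their products differed between Hutu80 and MDST8 by more than the counting intervals. Both miRNAs were chosen with these counts known, so the shares carry no test. In Hutu80, miR-2682-5p made up 28.3% and 34.5% of the summed counts of miR-2682-5p and miR-137-3p, or 31.4% over both libraries (37 of 118, interval 23.1% to 40.5%). In MDST8 it was 0 of 44 and 0 of 25, and 0 of 69 over both libraries allows a share of up to 4.35% if 3 counts are taken as the limit (Clopper-Pearson upper bound 5.21%). The other lines had too few counts to give a ratio, with 9 of both miRNAs together in Car-1 and 4 or fewer elsewhere. The 3p arm of the same hairpin, miR-2682-3p, had 5 counts in MDST8 replicate 2, none in MDST8 replicate 1 and 1 in Hutu80 replicate 2. The MDST8 counts of this hairpin were thus all of the 3p arm and all from a single library.

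**Figure D3:**
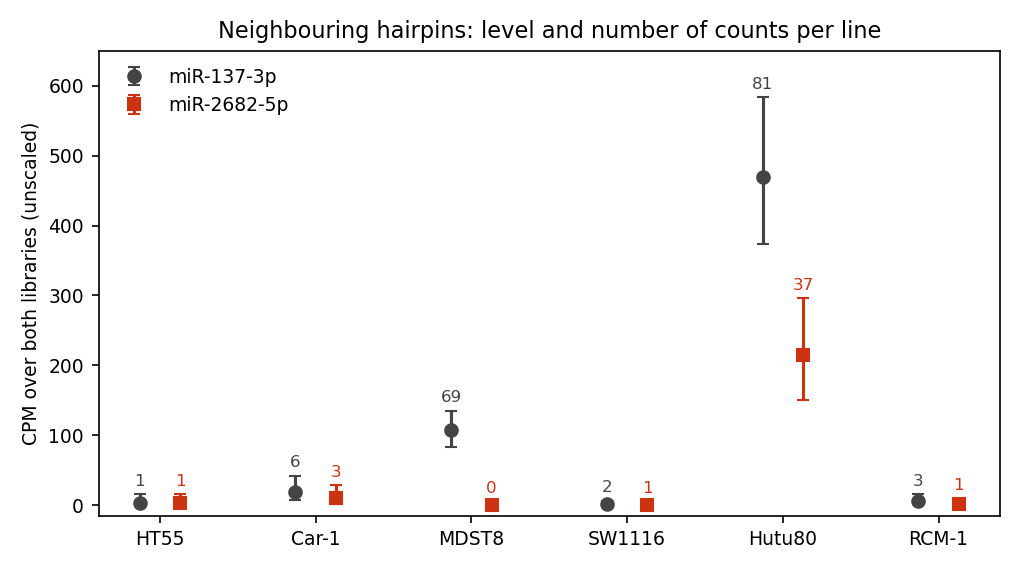
Unscaled CPM over both libraries of a line for miR-137-3p (circles) and miR-2682-5p (squares), with exact 95% Poisson intervals and the number of counts above each point. Hutu80 has 81 and 37 counts of the pair, and MDST8 has 69 and 0.

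The 4 members differed in how far a single line dominated. Of the summed scaled line means, the highest line held 91.8% for miR-2682-5p and 74.5% for miR-137-3p, both in Hutu80. It held 57.2% for miR-9-3p and 36.3% for miR-9-5p, both in SW1116. In unscaled CPM these shares were 92.8%, 78.3%, 44.2% and 25.6%, and Hutu80 held 24.6% for miR-9-5p. The median over all 318 tested miRNAs was 33.0% in scaled CPM. By the scaled share miR-2682-5p ranked 3rd, miR-137-3p 19th, miR-9-3p 53rd and miR-9-5p 140th of the 318. Since the members were chosen for their pattern across lines, these places are a description only.

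**Figure D4:**
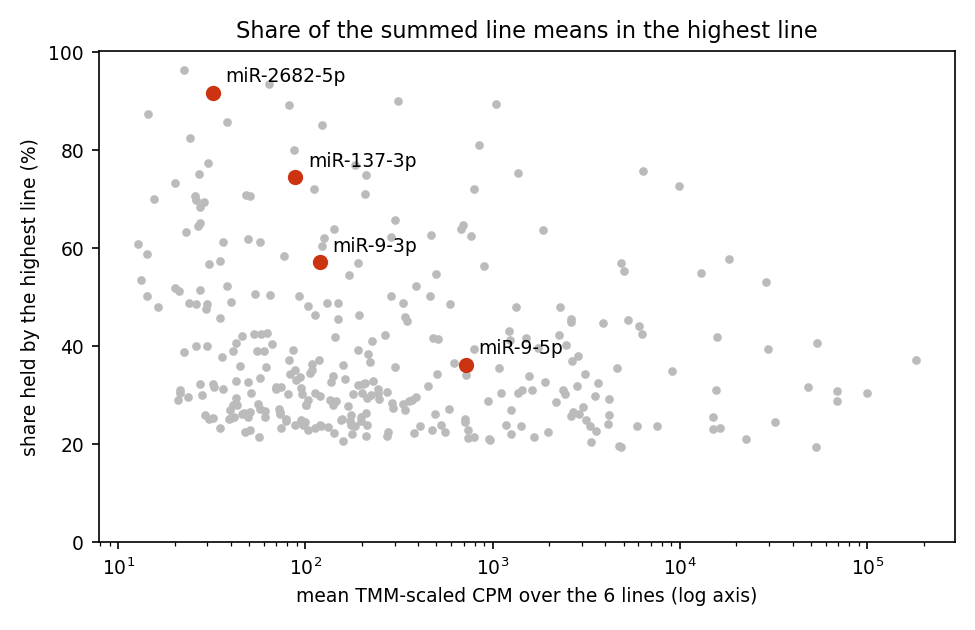
Mean TMM-scaled CPM over the 6 lines (log axis) against the share of the summed line means held by the highest line (percent), for the 318 tested miRNAs in grey and the 4 members in red. miR-2682-5p, at 91.8%, lies near the top and miR-9-5p, at 36.3%, near the median of 33.0%.

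The members did not share 1 highest line. SW1116 had the most miR-9-3p, the most miR-9-5p in scaled CPM, and 2 counts of miR-137-3p. In unscaled CPM its miR-9-5p libraries overlapped those of Hutu80. Hutu80 carried all 4 members, and MDST8 carried miR-9-5p and miR-137-3p with a low 3p arm and no miR-2682-5p. HT55 and RCM-1 had the least miR-9-5p and 1 and 3 counts of miR-137-3p. In scaled miR-9-5p, Car-1 lay above HT55 and RCM-1 and below SW1116, MDST8 and Hutu80. It had 6 counts of miR-137-3p and 3 of miR-2682-5p.

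Other brain-enriched miRNAs were then compared, from a list of 27 that excludes the 4 members but holds the opposite arms miR-137-5p and miR-2682-3p, neither of which passed the filter. Of these, 24 were in the table, 11 of which had at most 10 counts over all 12 libraries, and 8 passed the filter. miR-124-3p, the defining miRNA of neurons, had 1 count among 3141138. Across lines, 6 of the 8 passed edgeR's quasi-likelihood F-test at an adjusted p below 0.05, against 68.2% of all tested miRNAs, so the list differed between lines about as often as the background. This list and the second list below were chosen with earlier results of these data known. The p values of their miRNAs are therefore not independent of that choice.

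By description, MDST8 was the line in which most of the 8 were higher than in the mean of the other 5 lines. There, 5 of 8 were higher, against 22% of all tested miRNAs. The list's median difference there was 1.7 on the log2 scale, against -0.32 over all tested miRNAs. With no filter it was 0.62, against -0.51. Among the 5, miR-138-5p and miR-504-5p passed the filter on MDST8 alone, and miR-132-5p only with an MDST8 library beside a Car-1 library. Their place among the 8 and their calls in MDST8 thus rest on the same counts, and these calls are a description only. The 5 of 8 and the median of 1.7 rest in part on these members, so they are a description only too. miR-129-5p and miR-218-5p passed the filter on other lines as well. miR-138-5p, which restrains dendritic spine growth, was at 109 ± 10.3 CPM in MDST8 and at most 15.2 ± 7.30 elsewhere (log2 difference 3.61 ± 0.62 SE). Its counts were 32 and 37 in MDST8 and 0 to 5 in every other library. miR-129-5p, whose genes are often methylated in gut tumours, had 43 and 43 counts in MDST8, at 136 ± 1.03 CPM. Car-1 came next with 16 and 13 counts, at 65.0 ± 0.0154 CPM. Both SDs are smaller than the counting error of such counts. The log2 difference in MDST8 was 2.04 ± 0.49 (edgeR adjusted p = 0.00137). The remaining 2 of the 5, beside miR-218-5p, were miR-504-5p and miR-132-5p, both named after their values were seen. miR-504-5p had 31 and 24 counts in MDST8 and none in Hutu80. miR-132-5p had 15 and 18 counts in MDST8 and 13 and 2 in Car-1. The call of miR-132-5p ended without MDST8 replicate 1 or 2 and in DESeq2, with log2 differences of 2.33, 2.07 and 2.38 against 2.18.

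miR-218-5p, which marks motor neurons and is encoded within the SLIT genes, was, like miR-137-3p, highest in Hutu80 and MDST8. It was at 4154 ± 470 CPM in Hutu80 and 2849 ± 924 in MDST8, while Car-1 had 1316 ± 404, HT55 1134 ± 277, RCM-1 605 ± 106 and SW1116 437 ± 228. It was higher in Hutu80 by 2.02 ± 0.25 (adjusted p = 3.11e-07) and in MDST8 by 1.37 ± 0.25 (7.32e-05). It was lower in SW1116 (log2 difference -1.87 ± 0.32, 6.5e-05) and in RCM-1 (-1.33 ± 0.31, 0.00194), the last call ending without RCM-1 replicate 2 (-1.17, 0.0526). In Hutu80, 2 of the 8 were higher (23% of all tested) and none lower (16.7%), with none at an unadjusted p below 0.05 in edgeR or DESeq2 and 1 in limma-voom. The second was miR-132-3p, an activity-induced neuronal miRNA, with 46 and 26 counts there and 361 ± 201 CPM (adjusted p = 0.000444). That call rested on 1 library, since it ended without Hutu80 replicate 1 (log2 difference 1.06, adjusted p = 0.239).

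miR-7-5p, a miRNA of neurons and endocrine cells and the most abundant of the list, went the other way. It was at 5053 ± 43.7 CPM in SW1116 and 4596 ± 1357 in RCM-1, against 1634 ± 249 in MDST8. It was higher in SW1116 by 1.03 ± 0.21 (adjusted p = 0.000367) and in RCM-1 by 0.86 ± 0.21 (0.00235) and lower in MDST8 (log2 difference -0.92 ± 0.24, 0.00282). The SW1116 call ended when libraries were scaled by their totals alone (log2 difference 0.36, adjusted p = 0.205), the RCM-1 call without RCM-1 replicate 1 (0.56, 0.194), and the MDST8 call without MDST8 replicate 2 (-0.76, 0.096). In SW1116, 1 of the 8 was higher (17.6% of all tested) and 1 lower (16.7%). In RCM-1, 1 was higher (21.1%) and 2 lower (14.8%), miR-218-5p and miR-132-3p, whose RCM-1 call ended without RCM-1 replicate 2 (-2.13, 0.0741). In MDST8, miR-7-5p was the 1 lower member (22.3%). HT55 and Car-1 had none in either direction, against 13.8% higher and 10.4% lower in HT55 and 21.1% and 13.5% in Car-1. At an unadjusted p below 0.05, edgeR gave none in HT55 and 1 lower in Car-1, and neither line had a call in DESeq2 or limma-voom. miR-128-3p, abundant in neurons, was at 772 to 1209 CPM in the line means and did not pass across lines (adjusted p = 0.488).

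**Figure D5:**
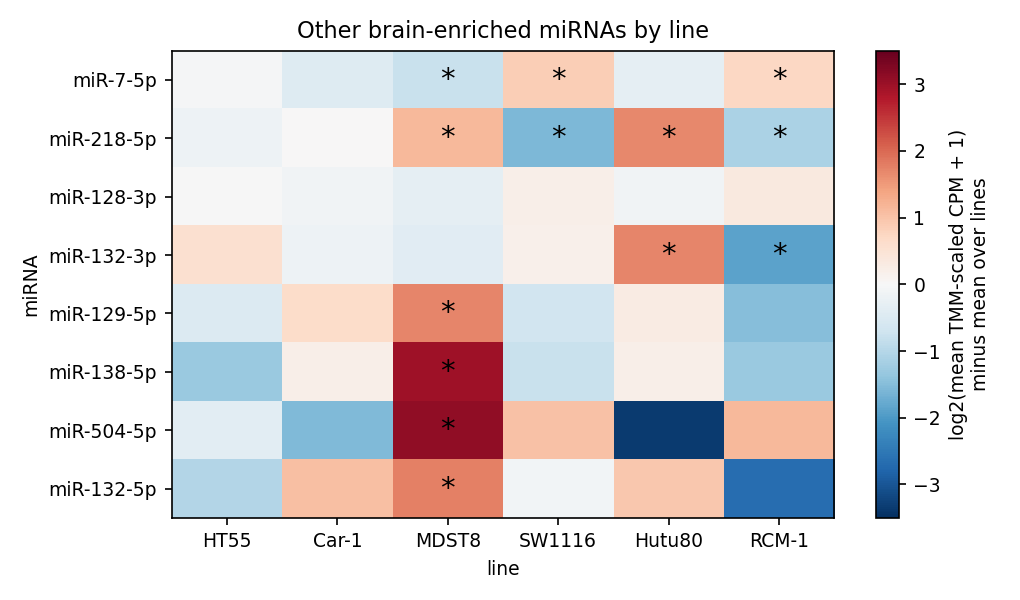
The 8 tested brain-enriched miRNAs outside the 4 members, by line, as log2(mean TMM-scaled CPM + 1) minus the mean over lines, with a star where edgeR gave an adjusted p below 0.05 for that line against the other 5. MDST8 has 5 starred higher cells, and miR-218-5p is high in Hutu80 and MDST8 and low in SW1116 and RCM-1. The MDST8 stars of miR-138-5p, miR-504-5p and miR-132-5p are a description only. The first 2 passed the filter on MDST8 alone, and miR-132-5p only with an MDST8 library.

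A second list held 26 miRNAs of the imprinted cluster at 14q32, which is active in the brain and in mesenchymal cells. All 26 were in the table and 5 passed the filter, miR-127-3p, miR-379-5p, miR-382-5p, miR-409-3p and miR-543. Against 68.2% of all tested miRNAs, none passed across lines in edgeR (1 had an unadjusted p below 0.05), none did in DESeq2, and 2 did in limma-voom. miR-127-3p ranged from 51.9 ± 24.6 CPM in SW1116 to 141 ± 9.05 in HT55 (adjusted p = 0.173). By line, miR-379-5p in Car-1 was the 1 of 5 members called, where 21.1% of all tested miRNAs were called higher (75.6 ± 7.97 CPM, log2 difference 2.26 ± 0.70). It passed the filter on Car-1 alone, so this call is a description only. That call ended without Car-1 replicate 1 or 2 and in DESeq2, with log2 differences of 2.18, 2.17 and 2.34. Library totals, which raise the median of all miRNAs in Car-1, gave 3 calls across lines.

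The miRNAs with the seed of miR-2682-5p were too sparse to be placed in a line. miR-34b-5p had 6 counts, all in MDST8 replicate 1, and miR-449c-5p had 1 count, in Car-1 replicate 2, so neither was tested. Bases 3 to 9 of miR-2682-5p equal the seed of miR-34a-5p, which p53 induces, and of miR-449a and miR-449b-5p. The last 2 had 6 and 7 counts in all, 1 each in Hutu80 replicate 2, and were not tested. miR-34a-5p was at 2712 ± 762 CPM in MDST8, 516 ± 173 in Hutu80 and 178 ± 11.5 in RCM-1, and differed across lines (edgeR adjusted p = 8.96e-09). Its highest line was thus the line with no count of miR-2682-5p.

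Among the tested miRNAs, the 3 whose log2 levels followed miR-9-5p most closely over the 12 libraries were let-7e-5p (Pearson r = 0.86, Spearman rho = 0.87), miR-99b-5p (0.84 and 0.73) and miR-125a-5p (0.79 and 0.71), which are encoded together in 1 cluster. let-7e-5p was at 6435 ± 1786 CPM in SW1116 and 5991 ± 228 in MDST8, against 814 ± 134 in RCM-1. For miR-9-3p they were miR-26a-5p (r = 0.75, rho = 0.69), miR-98-5p (0.67 and 0.73) and miR-365a-3p (0.61 and 0.45), whose counts equal those of miR-365b-3p in all 12 libraries, so the third place is a tie of identical mature sequences. None of the nearest miRNAs was shared by the arms. miR-137-3p was followed most closely by miR-30e-3p (0.92 and 0.86), miR-99a-5p (0.90 and 0.87) and miR-218-5p (0.87 and 0.87). miR-99a-5p was at 7175 ± 2396 CPM in Hutu80 and 4494 ± 424 in MDST8. For miR-2682-5p they were miR-1303 (0.85 and 0.61), miR-219a-1-3p (0.84 and 0.86) and miR-92a-1-5p (0.84 and 0.85). Hutu80 held 37 of the 43 counts of miR-2682-5p, so these values rest largely on that line. By rho, miR-1303 was in place 21. miR-1303 was at 1193 ± 47.1 CPM in Hutu80 and 326 ± 72.8 in Car-1. These correlations describe 12 libraries that come in pairs from 6 lines and share their scaling, and no p is given.

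The labelled cell type was checked against 9 epithelial miRNAs (the miR-200 family, miR-192-5p, miR-194-5p, miR-215-5p and miR-375-3p), all of which had counts in every line. Their summed level was 5060 to 6839 CPM in MDST8 and 11179 to 12494 in Hutu80. It was 32054 to 44028 in Car-1 and 109493 to 168092 over the libraries of RCM-1, SW1116 and HT55. The lines with the most miR-137-3p were thus those with the least epithelial miRNA. SW1116, with the most miR-9-3p, was among those with the most, and the part of this in the result was not tested. Of 6 blood and serum miRNAs, which could come from the medium, 5 or 6 had counts in each line, led by miR-486-5p. miR-144-3p was at 0 in MDST8, SW1116 and RCM-1. Their summed level was 5333 to 5845 CPM in HT55, 3734 to 4365 in Car-1, 3410 to 4256 in Hutu80, 1756 to 2765 in RCM-1, 1718 to 2146 in MDST8 and 1592 to 2325 in SW1116. The part of serum RNA in the members' levels was not tested.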

How the data were processed

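Vesicle small RNA was sequenced from IsoSeek libraries with molecular identifiers, per the labels' protocols. Per the submitters' processing notes, reads were placed on hg38. Not given in the sources used here were the aligner, the counter, the annotation and any collapse of identifiers. The authors deposited whole-number counts of 1636 mature miRNAs, not normalised, and a table of log2 values. The deposited log2 values equal log2(CPM + 1) of the counts over all 19632 cells (largest difference 5e-14) and were not tested.

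The edgeR 4.0.16 filter (filterByExpr, line as group) kept 318 miRNAs with 99.7% of counts. These entered 1 quasi-likelihood fit of all 12 libraries with TMM factors of 0.641 to 1.46 and 1 mean per line. It gave an F-test across lines and a contrast of every line to the average of its 5 counterparts, with Benjamini-Hochberg adjustment per comparison. The SE of a log2 difference comes from its size and F. The procedure was tested on simulated data. The arm ratio is log2 of the 5p over the 3p count, 0.5 added to each. Its planned permutation test is not reported, since it uses the counts by which the members were known, and the other hairpins were added after seeing the data. Hairpins were placed with GENCODE 29.

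The members and lists were chosen with earlier results of these data known. The text names all members, in each list up to 6 tested miRNAs with the highest mean level, miRNAs with a member's seed, and per member the 3 tested miRNAs with the highest Pearson r of log2(scaled CPM + 1). miRNAs counted by line outside this rule, seed neighbours shifted by 1 base and opposite arms were named after their values were seen. Alternatives were RLE size factors, library totals, no filter, 10 CPM in 2 libraries, DESeq2 1.42.0, limma-voom (limma 3.58.1), a replicate block and leaving out each library.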

Additional observations from a re-analysis of the deposited data

How the results depend on the processing

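Across lines, 217 of 318 miRNAs passed in edgeR. Of the same 318, DESeq2 called 204, limma-voom 226, edgeR with RLE size factors 219 and edgeR with library totals 248. With other filters 246 of 1223 (no filter, 20.1%) and 258 of 582 (10 CPM in 2 libraries, 44.3%) passed, and without any 1 library 219 to 242 of 366 to 396. Whether replicate numbers paired the libraries was not settled. The correlation of deviations was -0.11 to 0.25 over 15 pairs of lines, 4 above 0.1. On average, 10 of 12 libraries were closer to their own number. With the replicate block 223 miRNAs passed, the brain-enriched list gave 6 of 8 calls and the 14q32 list 0.

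Levels moved with the scaling. miR-9-5p in SW1116 was 1580 CPM with RLE size factors, 1067 with library totals, 1777 with no filter and 1663 with 10 CPM in 2 libraries, and 1655 to 1675 without either SW1116 library. miR-9-3p in SW1116 was 282 CPM with library totals and 369 to 506 without either library. miR-2682-5p in Hutu80 was 219, 134 and 163 CPM with library totals, no filter and 10 CPM in 2 libraries, and 138 to 156 without either library. miR-137-3p in Hutu80 was 261 to 395 without either library. When a library is left out, its partner is assumed to have the spread of the other lines.

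Library totals moved the median difference of all tested miRNAs from 0.02 to 0.64 in Car-1, -0.22 to -0.88 in SW1116, 0.09 to 0.44 in Hutu80 and -0.12 to -0.29 in RCM-1. Higher calls went from 60.9% to 90.7% of calls in Car-1, 51.4% to 21.2% in SW1116, 57.9% to 74.0% in Hutu80 and 58.8% to 47.3% in RCM-1. In the brain-enriched list, library totals gave 1 higher in Car-1 and 0 higher in SW1116, no filter gave 1 lower in Hutu80, 10 CPM in 2 libraries gave 2 higher in SW1116, and limma-voom gave 4 lower in RCM-1. Without 1 library the counts ran from 0 to 1 (Car-1 lower, Hutu80 lower, MDST8 lower, RCM-1 higher), 1 to 3 (Hutu80 higher) and 0 to 3 (RCM-1 lower). The changes came without Hutu80 replicate 2 (Car-1 lower), HT55 replicate 2 or Car-1 replicate 1 (Hutu80 lower), MDST8 replicate 2 (MDST8 lower), RCM-1 replicate 1 (RCM-1 higher), Hutu80 replicate 1 (Hutu80 higher, fewer) and RCM-1 replicate 2 (RCM-1 lower). In the 14q32 list, library totals gave 3 calls across lines, 3 higher in Car-1 and 2 lower in SW1116, limma-voom gave 2 across lines, DESeq2 gave 0 higher in Car-1, and Car-1 higher ran from 0 to 1 without 1 library. The causes were not tested. The 2 miRNAs with the seed of miR-2682-5p were tested only with no filter, where neither passed.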
